A study of Mus musculus with 14 samples.

Results

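Promoter capture Hi-C (PCHi-C) interactions were compared between cranial neural crest cells (CNCCs) of the second pharyngeal arch (PA2) of *Hoxa2* knockout embryos and of wild-type embryos at E10.5, a stage in days after conception. The comparison rests on 4 of the 14 libraries of the series, 2 replicates labelled Hoxa2EGFP/EGFP and 2 labelled WT, chosen by genotype, location and stage. The knockout embryos came from intercrosses of mice that carry an EGFP knock-in in place of *Hoxa2*, and EGFP-positive cells were sorted. The wild-type embryos carried Wnt1::Cre and a ROSA-RFP reporter, a Cre that labels neural crest derivatives, and RFP-positive cells were sorted. Both kinds of embryo had a mixed C57Bl/6J and CD1 background, and cells of embryos of both sexes were pooled. The 2 sides therefore differed in the *Hoxa2* genotype, the reporter allele, the sorted fluorescence and the cross, and these cannot be told apart. The other 10 libraries, from the maxillary (Mx), mandibular (Md) and frontonasal (FNP) processes at E10.5 and the pinna at E12.5 and E14.5, came from the same kind of cross as wild-type PA2 and served as a reference.

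HOXA2 is a homeodomain transcription factor that gives PA2 CNCCs their identity; without it, PA2 forms skeletal elements like those of the first arch (PA1) in place of its own. HOX proteins bind DNA together with TALE homeodomain cofactors of the PBX and MEIS families, and many of their targets are transcription factor genes whose enhancers lie far from the promoter. PCHi-C measures such distant contacts: chromatin is crosslinked, cut with HindIII and ligated, and ligation products that contain a promoter fragment, the bait, are enriched and sequenced. The authors scored each pair of a bait and another fragment, the other end, with CHiCAGO. The score grows as the contact becomes less probable under a background that falls with distance and is fitted within each library, and the deposited lists begin at a score of 5. A pair was called lost when both wild-type libraries listed it and neither knockout library did, gained in the reverse case, and kept when all 4 libraries listed it. An unlisted pair either scored below 5 or was left out before scoring, and the lists do not tell which. Neither is the absence of a contact.

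The *Hoxa2* promoter was examined first. Its bait (chr6:52162863-52166906, GRCm38/mm10) was listed with 41 and 49 fragments of chromosome 6 in the wild-type libraries and with 37 and 36 in the knockout libraries. Of these, 30 and 38 in the wild type and 26 and 26 in the knockout lay more than 1 Mb away, compared with between 1 and 5 in the FNP, Mx and Md libraries. The bait lies in the engineered gene and contacts are not transcripts, so this does not check the loss of *Hoxa2* RNA, nor can RNA markers be used to check the sorted cell type. The *Hoxa2*, *Wnt1* and *Ddn* baits, which lie at or beside sequence used in the engineered alleles, were left out of all further counts. The wild-type libraries then listed 140486 and 144957 pairs within chromosomes and the knockout libraries 113612 and 120801, against 133994 to 186174 in the other 10. The knockout replicates were more alike than any other 2 libraries: they shared 39.2% of the pairs that either listed, whereas the highest value among the remaining 90 library pairs was 30.3%, and wild-type and knockout libraries shared 23.8% to 24.8%.

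Of 308859 pairs listed in at least 1 of the 4 libraries, 21094 (6.83%) were lost, 18890 (6.12%) were gained and 32439 were kept. The lost pairs belonged to 8475 baits and the gained pairs to 9859 baits, of 21488 baits with a listed pair. Most losses and gains were spread thinly, and 46.9% of the baits with a lost pair and 55.1% of those with a gained pair had a single one. A total of 176 baits had at least 10 lost pairs, and 49 had at least 10 gained pairs. Strong contacts were more often lost than gained: 741 lost and 247 gained pairs had a score of at least 10 in both libraries that listed them. Scores of at least 10 were also rarer in the whole knockout lists (10.7% and 10.9% of pairs) than in the wild-type lists (12.8% and 13.1%). Of the 741, 71 came from baits with at least 3 pairs in both wild-type libraries and none in the knockout. The order of the totals depended on the unequal lengths of the lists. With the 113612 top-scoring pairs of each library, 14968 pairs were lost and 21050 gained.

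Lost and gained pairs differed in how far apart their fragments lay. The median distance was 281 kb for lost, 352 kb for gained and 232 kb for kept pairs. Among pairs less than 50 kb apart, 13.0% were lost and 7.51% gained, and 3986 of 15093 were kept. Between 200 kb and 1 Mb the lost and gained shares were 6.87% and 6.67%. Over 2 Mb, 1.90% were lost and 3.24% gained, which were 758 and 1293 pairs, and 229 of 39880 were kept. The gained pairs thus outnumbered the lost ones at the longest distances, and 372 gained pairs against 63 lost pairs spanned more than 20 Mb. Of the 372, 50 belonged to 1 bait, *Hjurp*/*Trpm8*. Whole libraries did not show longer contacts in the knockout: the median distance of listed pairs was 341 kb and 358 kb in the wild-type libraries and 318 kb and 337 kb in the knockout libraries. The difference of -22.2 kb between the group means had an exact two-sided permutation p of 0.333, the smallest that 2 against 2 libraries can give. It was -3.72 kb for pairs within 2 Mb and between -31.7 and -12.6 kb without 1 library, with -12.6 kb without knockout replicate 1 and -13.7 kb without wild-type replicate 2.

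**Figure D1:**
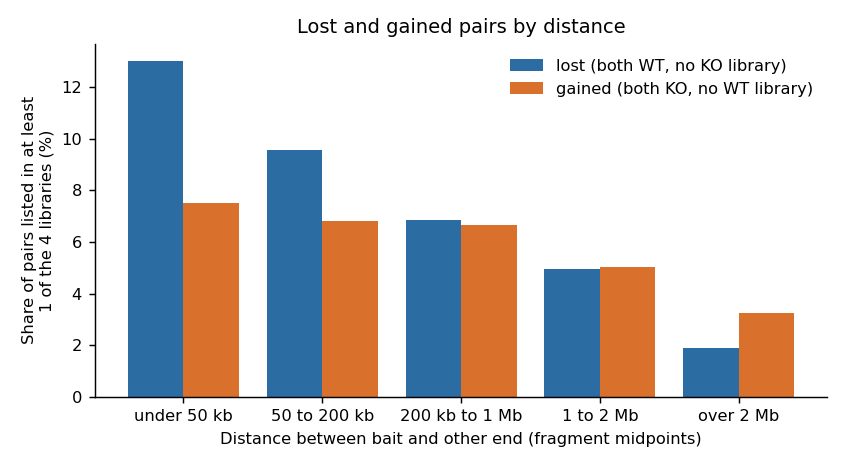
Share of pairs listed in at least 1 of the 4 PA2 libraries (vertical axis, %) that were lost (blue) or gained (orange), by distance between fragment midpoints (horizontal axis). The lost share falls from 13.0% under 50 kb to 1.90% over 2 Mb, and the gained share is the larger one only in the bins from 1 Mb upwards.

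The 10 libraries of other regions and stages, which took no part in the choice, listed the lost pairs far more often than the gained ones. Each of them listed between 44.1% and 62.0% of the lost pairs, between 16.1% and 22.3% of the gained pairs and between 77.2% and 91.4% of the kept pairs. None of the 10 listed 4.92% of the lost pairs and 36.5% of the gained pairs. All 10 listed 8.34% of the lost, 0.339% of the gained and 47.8% of the kept pairs. Most lost pairs were thus contacts that facial or pinna CNCCs also had, and 6887 gained pairs were seen in the knockout libraries alone. The 10 libraries and wild-type PA2 came from the same kind of cross, so this does not separate the genotype from the cross. The gained pairs were also weaker. Their median score in the listing libraries was 6.16, compared with 6.45 for lost and 8.38 for kept pairs. Gained pairs were scored in the knockout libraries and lost pairs in the wild-type ones. The median scores of the whole lists were also lower in the knockout (6.26 and 6.27) than in the wild type (6.38 and 6.39). An adjacent fragment belonged to the same class for 6.09% of gained, 16.8% of lost and 50.7% of kept pairs.

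**Figure D2:**
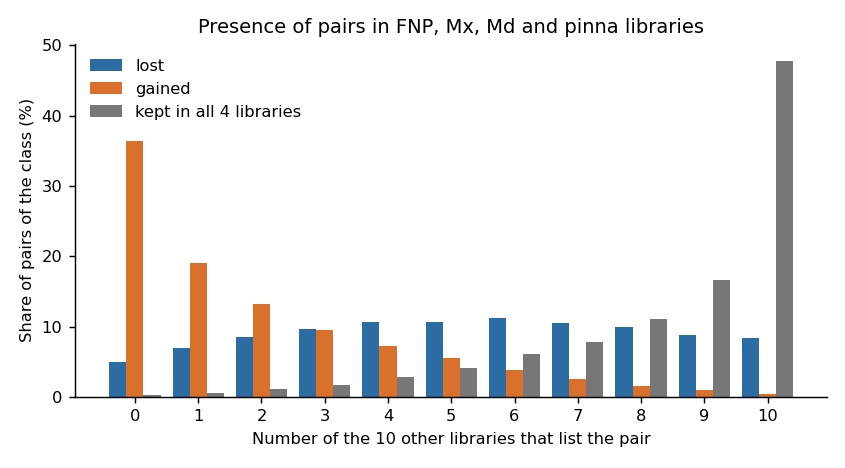
Share of the lost, gained and kept pairs (vertical axis, %) by how many of the 10 FNP, Mx, Md and pinna libraries listed them (horizontal axis). Gained pairs pile up at 0 (36.5%), kept pairs at 10 (47.8%), and lost pairs spread over the whole range with 4.92% at 0.

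Over the whole genome, limma on asinh of the score, with the spread estimated from all 14 libraries, tested 158926 pairs listed in at least 4 libraries. It called 2752 pairs lower (1.73%) and 568 higher (0.357%) in the knockout at an adjusted p below 0.05. The lower pairs belonged to 1887 baits. Lost pairs made up 92.1% of the lower calls and gained pairs 99.3% of the higher ones, while 2535 of 18587 lost pairs tested were called. The fit uses the scores that define these classes and takes its spread from the other 10 libraries too. An adjusted p of a lost or gained pair, or its listing in those libraries, is therefore not separate support. The filter admitted 88.1% of the lost but 44.6% of the gained pairs, so the test could not treat both directions equally. With at least 2 listing libraries, 4356 pairs were lower and 7798 higher, but at that setting a pair listed in the knockout libraries alone, as 6887 gained pairs were, enters only through the group where it is high. Over baits, limma on the scaled number of listed pairs of 12801 baits called 63 lower (0.492%) and 0 higher (0.0%), with 900 lower and 596 higher at an unadjusted p below 0.05. More listed pairs in both wild-type libraries than in either knockout library were found for 5007 of 21488 baits (23.3%) and the reverse for 2250, so the groups did not overlap for 33.8% of the baits. In the 4 PA2 libraries alone, no bait was called, and without wild-type replicate 2, 33 were called, 8 of them higher. No bait of the developmental gene lists described next was among the 63.

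The *Hox* genes, which encode the homeodomain factors of the 4 clusters, were described next without *Hoxa2* itself. Over 39 baits, 209 of 2108 pairs were lost (9.91%) and 102 were gained (4.84%), beside 6.83% and 6.12% over all pairs. Counts varied among the clusters, which were not tested against each other. The *Hoxc* baits had 102 lost and 29 gained pairs of 875, the *Hoxb* baits 46 and 16 of 380, and the *Hoxa* baits 33 and 13 of 343. The *Hoxd* baits had 17 lost and 33 gained pairs of 401. Total listed pairs of the *Hoxd* baits were 257 and 229 in the wild type and 262 and 262 in the knockout, so the groups did not overlap. For the *Hoxc* baits they were 646 and 662 in the wild type and 486 and 545 in the knockout, which is 78.8% of the wild-type total, beside 82.1% for all baits. Scaled to the library totals, the median log2 difference between knockout and wild type was 0.35 over the *Hoxd* baits, -0.05 over the *Hoxc* baits, -0.06 over the *Hoxa* baits, -0.24 over the *Hoxb* baits and 0.02 over all baits tested. With equal numbers of top-scoring pairs, 155 pairs of all *Hox* baits were lost and 124 gained, beside 14968 and 21050 over all pairs. The *Hoxc* baits then had 74 lost and 36 gained pairs, the *Hoxa* baits 31 and 14, the *Hoxb* baits 27 and 25, so that their excess of lost pairs nearly vanished, and the *Hoxd* baits 15 and 38. With a score of at least 10 needed in each library, the *Hoxd* baits had 15 lost and 8 gained pairs beside 3656 and 1795 over all pairs, and without wild-type replicate 2 they had 55 and 44 beside 78921 and 26348.

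Within *Hoxc*, 8 of the 9 baits had more lost than gained pairs. Over all baits, 5294 had more lost and 6220 more gained pairs. *Hoxc10* (chr15:102958921-102968000, a bait that also holds a *Hoxc5* start site) was listed with 60 and 71 fragments in the wild type and 27 and 32 in the knockout, with 22 lost pairs and no gained pair. *Hoxc8* (chr15:102987678-102994892) was listed with 75 and 72 fragments against 43 and 46, with 20 lost and 2 gained pairs. *Hoxc11* (chr15:102952032-102954971) was listed with 75 and 71 against 41 and 53, with 15 lost and 1 gained. The knockout libraries lay below both wild-type libraries for each of these baits, though not below the lowest of the other 10 libraries, at 42 for *Hoxc8*, 9 for *Hoxc10* and 24 for *Hoxc11*. Scaled to the library totals, their log2 differences were -0.85 for *Hoxc10*, -0.43 for *Hoxc8* and -0.36 for *Hoxc11*. None of them passed (limma adjusted p = 0.515, 0.602 and 0.707). Those of *Hoxc6* and *Hoxc9* were 0.17 each, and the median over the *Hoxc* baits was -0.05. Contacts between fragments inside the *Hoxc* cluster included 24 lost, 100 kept and no gained pairs. The strongest lost *Hoxc11* pair joined it to the fragment with the *Smug1* start site, 212 kb away, with scores of 15.69 and 14.9 in the wild type. That pair was listed in all 10 other libraries and passed the limma test over all pairs (adjusted p = 0.000485).

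In *Hoxb*, *Hoxb8* had 23 lost and 3 gained pairs over 2 baits, 1 of them shared with *Hoxb7*. Summed over both baits, listed pairs were 116 and 106 in the wild type and 78 and 85 in the knockout. The shared bait held 12 of the lost and 2 of the gained pairs (47 and 50 against 35 and 28). The bait of *Hoxb8* alone had a scaled log2 difference of -0.04 (limma adjusted p = 0.972), so the lack of overlap in the sum is not a result for *Hoxb8* alone. Lost pairs of the latter bait with the fragments 495 kb and 503 kb away were listed at 8.9 and 9.21 and at 13.02 and 9.27 in the wild type (limma adjusted p = 0.00165 and 0.000844). *Hoxb2*, a regulator of hindbrain segment identity, was listed with 6 and 9 fragments in the wild type and 2 and 0 in the knockout, against 5 to 38 in the other 10 libraries. Its log2 difference was -2.53 and did not pass (limma adjusted p = 0.0795).

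Of the pairs of *Hoxa* genes other than *Hoxa2* that spanned over 1 Mb, 46 were kept, 11 lost and none gained. Listed pairs of that length numbered 84 and 78 in the wild type and 52 and 68 in the knockout. *Hoxa9* lost one 1059 kb away, scored 10.69 and 6.65 in the wild type and listed in all 10 other libraries (limma adjusted p = 0.0129). *Hoxa9* differed from its neighbours in having 7 gained pairs and 1 lost pair, with 19 and 14 listed pairs in the wild type and 21 and 19 in the knockout, which touch at 19. The 12 baits of genes next to the cluster, among them *Skap2*, *Cycs* and *Creb5*, had 8 lost and 9 gained pairs of 185.

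In *Hoxd*, 26 of the 33 gained pairs lay on the *Hoxd1* side of the cluster and 7 on the other side. Lost and kept pairs were split in a similar way, with 14 lost and 111 kept pairs on the *Hoxd1* side and 3 and 30 on the other. The side was thus not particular to the gained pairs. *Hoxd4* had 15 gained and 7 lost pairs over 3 baits (96 and 91 listed pairs in the wild type, 107 and 103 in the knockout). *Hoxd3*, with which *Hoxd4* shares a bait, had 6 gained and 2 lost, and *Hoxd9* 4 gained and 1 lost. *Evx2*, a homeobox gene at the other end of the cluster, had 9 gained and 3 lost pairs (33 and 36 against 43 and 46). The groups did not overlap for *Hoxd3*, *Hoxd4*, *Hoxd9*, *Hoxd13* or *Evx2*, all higher in the knockout, nor for *Hoxd10*, which was lower (22 and 20 against 16 and 18). Of the 9 *Hoxd* baits, without *Evx2*, 4 were higher and 1 lower without overlap, beside 2250 and 5007 of 21488 over all baits. *Hoxd4* lost pairs 335 kb and 341 kb away (limma adjusted p = 0.00114 and 0.00311) and gained one 587 kb away, scored 6.29 and 5.46 in the knockout (limma adjusted p = 0.0177). The *Hoxd3* bait also gained a pair with the fragment at the *Pax6* start site, 31.0 Mb away, scored 7.76 and 12.58, that none of the other 10 libraries listed.

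Promoter sequences of *Hoxb8* and *Evx2* are shown because they stand for a *Hox* promoter with mostly lost and one with mostly gained pairs, and because both hold a motif of the HOX and PBX complex. They are RefSeq windows of 300 bases (GRCm38.p6), chr11:96281655-96281954 on the plus strand for *Hoxb8* and chr2:74659508-74659807 on the minus strand for *Evx2*. Capitals mark TGATNNAT, a HOX-PBX motif, or TGACAG, a MEIS motif, on either strand.
Hoxb8: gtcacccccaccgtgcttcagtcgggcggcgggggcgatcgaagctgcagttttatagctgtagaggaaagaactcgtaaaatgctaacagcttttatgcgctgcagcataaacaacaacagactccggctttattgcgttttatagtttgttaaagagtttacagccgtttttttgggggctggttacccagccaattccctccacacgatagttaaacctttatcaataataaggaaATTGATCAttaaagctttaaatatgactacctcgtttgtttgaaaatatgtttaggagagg
Evx2: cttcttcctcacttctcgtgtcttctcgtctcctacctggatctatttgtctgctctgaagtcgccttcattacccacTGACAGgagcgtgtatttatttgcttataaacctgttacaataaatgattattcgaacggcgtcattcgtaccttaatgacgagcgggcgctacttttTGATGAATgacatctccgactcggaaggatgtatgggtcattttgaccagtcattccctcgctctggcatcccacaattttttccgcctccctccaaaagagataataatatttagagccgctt
The HOX-PBX motif was present in 8.85% and the MEIS motif in 19.2% of 32851 RefSeq promoter windows, and 1.85% had both, as *Evx2* does. The 23 *Hox* genes with an entry had 25 windows, of which 4 held the HOX-PBX motif and 2 the MEIS motif. A match describes the letters and does not show binding.

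**Figure D3:**
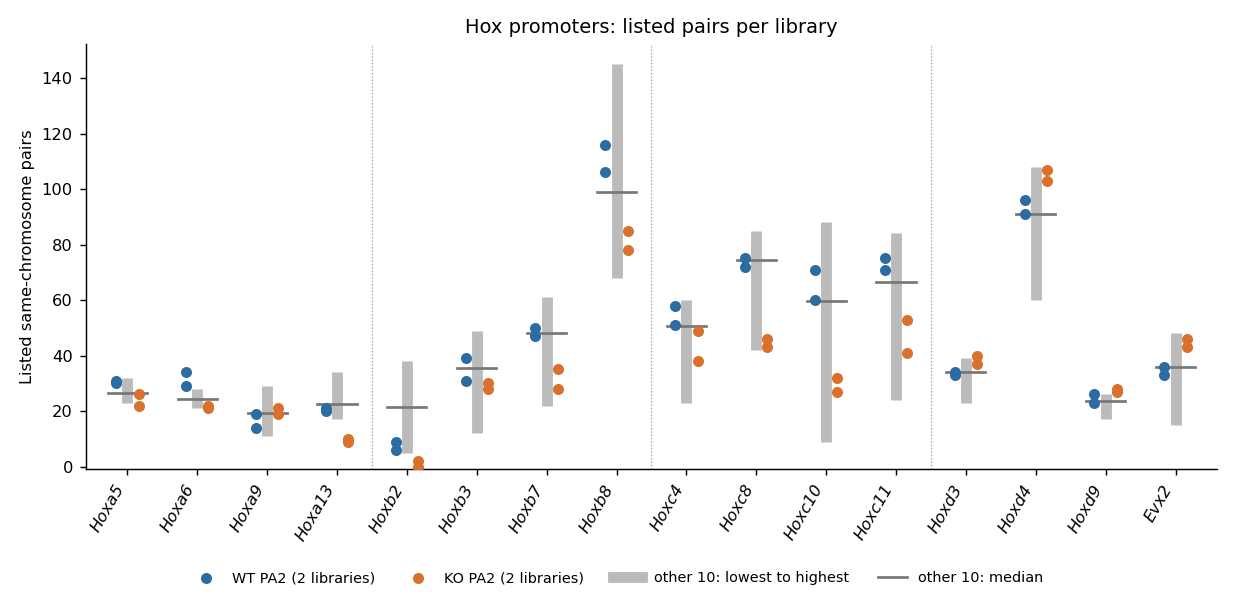
Number of same-chromosome pairs listed per library (vertical axis) for 16 *Hox* and *Evx2* promoters in the order of the *Hoxa*, *Hoxb*, *Hoxc* and *Hoxd* clusters. Points are the 2 wild-type (blue) and 2 knockout (orange) PA2 libraries, grey bars run from the lowest to the highest of the other 10 libraries and grey lines mark their median. *Hoxc10* goes from 60 and 71 to 27 and 32, and *Hoxd4* from 96 and 91 to 107 and 103.

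HOXA2 promotes PA2 genes such as *Meis1*, *Meis2*, *Zfp703*, *Zfp503*, *Meox1*, *Fzd4* and *Wnt5a* and holds back PA1 genes such as *Pitx1*, *Lhx6*, *Barx1*, *Alx4*, *Six2*, *Rspo2* and *Gbx2*; part of this grouping comes from the study's own RNA-seq of another mutant, so the lists are not independent of the study. The 7 activated genes had 27 lost and 9 gained pairs of 248 (10.9% and 3.63%), and listed pairs in the knockout were 74.3% of those in the wild type. The 7 repressed genes had 11 lost and 13 gained pairs of 230 (4.78% and 5.65%), and listed pairs were 108% of the wild type, beside 82.1% over all baits. The median log2 difference of their baits, scaled to the library totals, was -0.14 for the activated genes, 0.50 for the repressed genes and 0.02 over all baits tested. None of these baits passed the limma test over baits. With equal numbers of top-scoring pairs, the activated genes had 24 lost and 14 gained pairs and the repressed genes 6 and 15. These were 1.71 and 0.40 lost pairs per gained pair, beside 0.71 over all pairs at that setting. Leaving out a library moved the counts of these lists and of all pairs alike. Without knockout replicate 1, the activated genes had 37 lost and 39 gained pairs beside 26514 and 55935 over all pairs, and without wild-type replicate 1, the repressed genes had 44 and 21 beside 82637 and 26121.

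*Wnt5a*, a ligand of noncanonical Wnt signalling, had 8 lost pairs and 1 gained pair. Its bait (chr14:28498679-28508261) was listed with 21 and 35 fragments in the wild type and 14 and 18 in the knockout, which did not overlap. The strongest lost pair joined it to a fragment 500.5 kb away, with scores of 12.27 and 15.87 in the wild type, and was listed in all 10 other libraries (limma difference -3.33 on the asinh scale, SE 0.327, adjusted p = 0.000758). At the other side of the gene, a pair at 601 kb was lost (8.1 and 8.11 in the wild type, limma adjusted p = 0.0312) and one at 606 kb was gained (7.36 and 8.34 in the knockout, limma adjusted p = 0.0323). *Meis2*, a HOX cofactor gene, had 4 lost pairs and no gained pair, with 9 and 8 listed pairs in the wild type and 2 and 5 in the knockout. Its strongest lost pair spanned 1.80 Mb (10.81 and 12.29, limma adjusted p = 0.17). *Meis1* had 3 lost pairs and 1 gained pair, and the lost one at 742 kb was listed at 9.31 and 11.6 in the wild type and in all 10 other libraries (limma adjusted p = 0.000573). *Zfp703* had 9 lost and 3 gained pairs (44 and 46 against 37 and 29). *Fzd4*, a Wnt receptor gene, went the other way, with no lost and 3 gained pairs and 9 and 8 listed pairs in the wild type against 14 and 14 in the knockout.

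Among the repressed genes, *Barx1*, a homeobox gene of arch mesenchyme, had no lost and 3 gained pairs, and its bait (chr13:48662164-48666201) was listed with 13 and 20 fragments in the wild type and 24 and 25 in the knockout. The knockout values also lay above the highest of the other 10 libraries, 22. *Rspo2*, a Wnt agonist gene, had 2 gained pairs and none lost (9 and 7 against 12 and 11). *Alx4* and *Lhx6* each had 3 gained and 2 lost pairs, but their groups overlapped, with 6 and 16 against 11 and 12 for *Alx4* and 26 and 28 against 27 and 20 for *Lhx6*. *Pitx1*, a homeobox gene of PA1 and the hindlimb, had 2 lost pairs and none gained, with 11 and 10 listed pairs in the wild type against 7 and 9 in the knockout, which did not overlap. *Six2* also had more lost than gained pairs, 5 against 1, yet its listed pairs overlapped between the groups (32 and 35 against 30 and 35). Its lost pair at 339 kb, scored 10.46 and 5.47, passed the limma test (adjusted p = 0.00265), while its gained pair at 346 kb, scored 10.15 and 13.09 in the knockout, did not (adjusted p = 0.219).

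The 22 baits of PA1 and facial patterning factors had 86 lost and 61 gained pairs of 1097 (7.84% and 5.56%). With equal numbers of top-scoring pairs they had 63 lost and 79 gained pairs, beside 14968 and 21050 over all pairs. More listed pairs in both wild-type libraries than in either knockout library were found for 11 of the 22 baits and the reverse for 1, beside 5007 and 2250 of 21488 over all baits. These counts were not scaled to the shorter knockout lists. Scaled to the library totals, the median log2 difference of the 22 baits was -0.006, beside 0.02 over all baits tested. The *Dlx* genes, which code for homeodomain factors that set position along the arch, had counts in both directions. *Dlx1* (chr2:71521822-71529796) had 10 gained and 2 lost pairs and was listed with 33 and 38 fragments in the wild type and 51 and 39 in the knockout. *Dlx2* (chr2:71536367-71550155) had 10 gained and 4 lost pairs, with 49 and 38 against 45 and 59, so its groups overlapped. In all 4 PA2 libraries both genes had more contacts than in any of the other 10 libraries, which listed 9 to 21 for *Dlx1* and 13 to 25 for *Dlx2*. Of the 20 gained pairs, 16 reached fragments below the genes, between positions 71153101 and 71476956 of chromosome 2, and 13 were listed in none of the other 10 libraries. Most pairs of these baits lay on that side. The wild-type libraries listed 76 and 71 pairs below the genes and 4 and 4 above them, and 33 kept pairs lay below and 0 above. The scores of the gained pairs were low, between 5.04 and 9.3.

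*Dlx3* had 5 lost and 2 gained pairs (30 and 28 against 25 and 21), and its neighbour *Dlx4* had 1 lost pair and none gained (14 and 15 against 14 and 6). *Dlx5* (chr6:6879164-6883001) had more lost than gained pairs, with 11 lost and 3 gained pairs and 55 and 64 listed pairs in the wild type against 47 and 38 in the knockout. Of its lost pairs, 3 lay side by side, 853 kb, 858 kb and 862 kb from the promoter, with wild-type scores between 10.02 and 12.97. All 10 other libraries listed all 3 (limma adjusted p between 0.000648 and 0.000964). *Msx1*, a homeobox gene of arch mesenchyme, had 7 lost pairs and none gained, with 14 and 21 listed pairs in the wild type and 8 and 8 in the knockout. The lost pair that passed the test joined it to the fragment of *Hmx1*, 2.44 Mb away (10.9 and 7.46, limma adjusted p = 0.0153). *Gsc* had 11 lost and 3 gained pairs (43 and 50 against 41 and 30). *Pax9*, needed for tooth and palate, had 9 lost and 2 gained pairs (60 and 52 against 36 and 42), and 4 of its pairs were lower and 1 higher in the limma test. *Foxd1* had 7 lost pairs and none gained (36 and 37 against 28 and 27).

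The *Dlx2* and *Foxd1* promoters are shown as a patterning promoter with mostly gained pairs and one with lost pairs alone. The windows are chr2:71546705-71547004 on the minus strand and chr13:98353995-98354294 on the plus strand (RefSeq, GRCm38.p6), with the motifs in capitals as above.
Dlx2: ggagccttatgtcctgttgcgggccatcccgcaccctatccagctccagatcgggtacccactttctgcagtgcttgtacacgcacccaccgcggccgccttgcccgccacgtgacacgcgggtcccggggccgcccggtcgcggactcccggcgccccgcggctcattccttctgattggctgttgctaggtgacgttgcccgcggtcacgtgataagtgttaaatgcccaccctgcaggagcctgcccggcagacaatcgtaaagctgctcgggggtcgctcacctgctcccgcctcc
Foxd1: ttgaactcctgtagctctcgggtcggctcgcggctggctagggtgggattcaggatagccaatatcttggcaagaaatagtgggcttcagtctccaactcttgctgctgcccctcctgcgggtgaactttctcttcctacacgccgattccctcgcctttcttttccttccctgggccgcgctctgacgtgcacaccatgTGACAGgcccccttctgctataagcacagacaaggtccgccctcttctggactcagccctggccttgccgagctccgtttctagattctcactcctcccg
*Foxd1* held a MEIS motif, and *Dlx2* neither motif. Among the 13 windows of patterning genes, none held the HOX-PBX motif and 3 held the MEIS motif.

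The 37 baits of skeletal and ear morphogenesis genes had 107 lost and 73 gained pairs of 1367 (7.83% and 5.34%), and 81 and 86 with equal numbers of top-scoring pairs. The latter were 0.94 lost pairs per gained pair, beside 0.71 over all pairs at that setting. *Fgf8*, a signal of arch epithelium, had 6 lost pairs and 1 gained pair, with 42 and 37 listed pairs in the wild type and 23 and 24 in the knockout. Its lost pairs at 495 kb (17.08 and 13.85) and 581 kb (14.64 and 13.16) were listed in all 10 other libraries (limma adjusted p = 0.000478 and 0.000585), and 4 of its pairs were lower in the limma test. *Six4* and *Eya1*, which act together in ear development, had more gained than lost pairs, 9 against 1 for *Six4* and 4 against 1 for *Eya1*. *Six4* was listed with 32 and 28 fragments in the wild type and 35 and 37 in the knockout. *Tfap2a*, a transcription factor gene of the neural crest, had 5 lost pairs and none gained, and its bait was listed with 25 and 25 fragments against 13 and 11, below the lowest value of 20 in the other 10 libraries. The log2 difference of that bait was -0.75 (limma adjusted p = 0.29). One of its RefSeq windows, chr13:40734871-40735170 on the minus strand (GRCm38.p6), is shown because it holds a HOX-PBX motif near its end, in capitals.
Tfap2a: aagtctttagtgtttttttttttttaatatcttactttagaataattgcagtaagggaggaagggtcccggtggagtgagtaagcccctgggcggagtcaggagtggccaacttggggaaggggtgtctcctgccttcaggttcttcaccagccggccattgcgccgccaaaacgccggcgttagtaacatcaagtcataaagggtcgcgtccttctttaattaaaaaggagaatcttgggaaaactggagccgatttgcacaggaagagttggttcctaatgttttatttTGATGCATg
The 20 genes of this group with an entry had 30 windows, of which 3 held that motif and 4 the MEIS motif.

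The 32 baits of other Wnt pathway genes had 63 lost and 43 gained pairs of 725 (8.69% and 5.93%), and 47 and 52 with equal numbers. The latter were 0.90 lost pairs per gained pair, beside 0.71 over all pairs at that setting. *Wnt11*, a noncanonical ligand gene like *Wnt5a*, had 9 gained pairs and 1 lost pair. It was listed with 14 and 24 fragments in the wild type and 25 and 25 in the knockout, and in between 16 and 102 in the other 10 libraries, with a median of 38.5, so the groups differed by as little as 1 pair and all 4 libraries lay below that median. *Tcf7l2*, a nuclear effector gene of the pathway, had 9 lost and 3 gained pairs (43 and 38 against 35 and 20). *Fzd8* had 7 lost and 3 gained, and *Fzd7* 6 lost and 3 gained. The 8 baits of other cofactor genes of the MEIS, PBX and PKNOX families had 12 lost and 10 gained pairs of 209.

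Promoters of genes that mark other cell types were counted in the same way. Lost and gained pairs numbered 10 and 13 of 234 for neuronal and glial markers, 23 and 22 of 242 for muscle and mesoderm markers, 13 and 16 of 268 for endothelial and blood markers, and 22 and 17 of 246 for epithelial markers. The median log2 differences of their baits lay between -0.16 and 0.06. Contacts do not measure the share of other cells in the sort, and its part in the results was not tested. Among these genes, *Myod1*, of muscle, had 10 lost and 3 gained pairs, *Krt14* 10 lost and 3 gained, and *Ebf3* 3 lost and 9 gained. The baits at the engineered Rosa26 locus, *Gt(ROSA)26Sor*, *Setd5* and *Thumpd3*, had 6 lost and 3 gained pairs of 77 and a median log2 difference of -0.65.

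**Figure D4:**
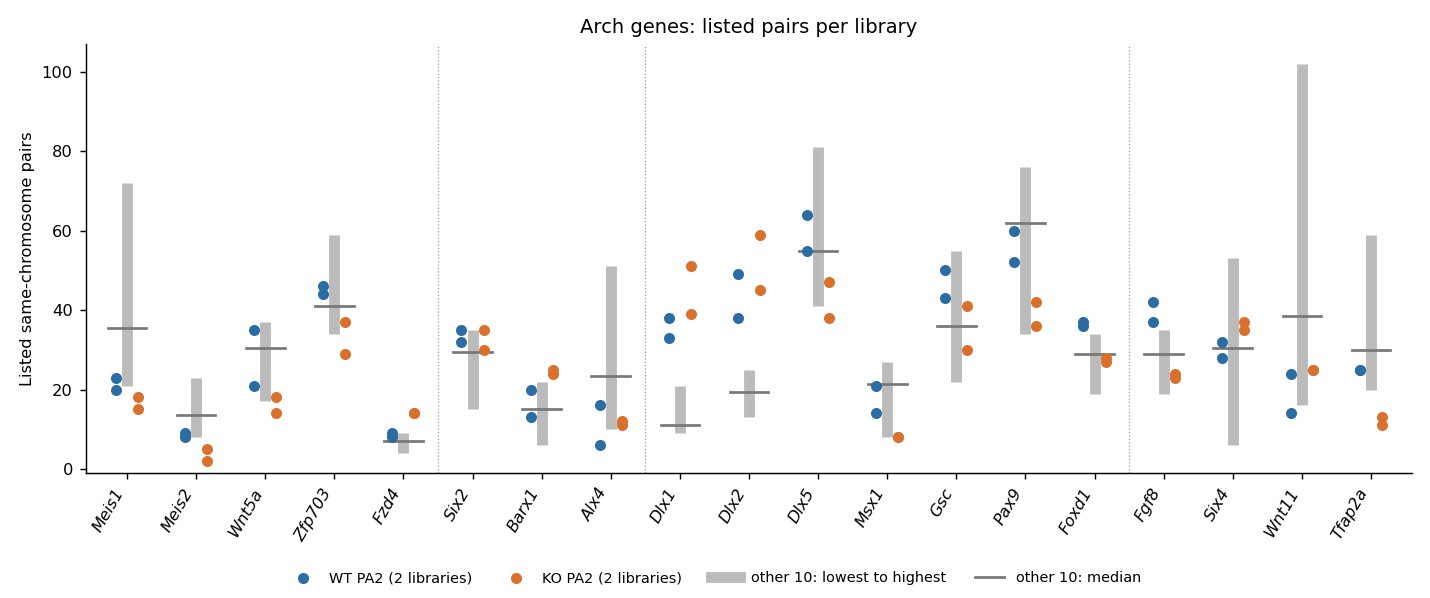
Number of same-chromosome pairs listed per library (vertical axis) for 19 promoters, from left to right genes activated by HOXA2, genes repressed by it, patterning factors, and *Fgf8*, *Six4*, *Wnt11* and *Tfap2a*. Symbols are the 2 wild-type (blue) and 2 knockout (orange) PA2 libraries and the range and median of the other 10 libraries (grey). *Tfap2a* goes from 25 and 25 to 13 and 11, *Barx1* from 13 and 20 to 24 and 25, and *Dlx1* lies above the other 10 libraries in all 4.

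Of the 63 baits called lower by limma, 32 had no listed pair in either knockout library. *Borcs5* was listed with 30 and 18 fragments in the wild type, with 0 and 0 in the knockout and with 12 to 33 in the other 10 libraries (log2 difference -5.29, a fitted value that depends on the prior count, SE 0.386, limma adjusted p = 1.97e-06). *Gna11*, a G protein subunit gene, was listed with 15 and 15 against 0 and 0, *Pltp*, a phospholipid transfer gene, with 14 and 16 against 0 and 0, and *Pcolce*, for an enhancer of procollagen processing, with 14 and 13 against 0 and 0. Each of them had 11 lost pairs. *Gm20429*, *Ash1l*, *Olfr1099*, *Ifi30*, *Prpsap2* and *Olfr566* followed, each at 0 in both knockout libraries and between 8 and 13 in the wild type. By a rule set after these values were seen, 26 baits had no pair in the knockout and at least 3 in each of the other 12 libraries. Asked of the other groups in the same way, the rule found 1 bait for the E14.5 pinna and none for the remaining 5. As other ends of different baits, the fragments of these 26 were listed in 15 and 12 pairs in the wild type and 5 and 9 in the knockout. These pairs came from 4 and 2 fragments in the wild type and 3 and 3 in the knockout. Most of the 26 were thus unlisted as other ends in both groups. *Borcs5*, *Gna11*, *Pltp* and *Pcolce* were at 0 and 0 as other ends in the knockout, which by itself shows no loss there. Whether a bait at 0 had no pair scored at least 5 or was left out before scoring in those libraries cannot be told from the lists. By a looser rule, 93 baits, which include these 26, had none in the knockout and at least 3 in both wild-type libraries. These 93 baits held 1.31% of the lost pairs, and without them 20817 were lost. The reverse, none in the wild type and at least 3 in both knockout libraries, was seen for 28 baits.

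By the lower of the 2 wild-type scores, the strongest lost pair was at *Pcolce* (chr5:137611198-137616170), with a fragment 16.7 kb away that holds start sites of *Mospd3* and *Pcolce*. It scored 35.35 and 46.92 in the wild type and was listed in all 10 other libraries (limma adjusted p = 0.000189). The RefSeq window in the bait, chr5:137611355-137611654 on the minus strand (GRCm38.p6), held neither motif.
Pcolce: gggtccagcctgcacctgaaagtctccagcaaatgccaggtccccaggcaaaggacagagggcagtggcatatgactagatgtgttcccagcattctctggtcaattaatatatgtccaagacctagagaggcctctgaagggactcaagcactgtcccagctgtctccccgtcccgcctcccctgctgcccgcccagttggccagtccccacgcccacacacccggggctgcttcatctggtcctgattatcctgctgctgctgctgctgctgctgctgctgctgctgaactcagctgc

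Histone genes made up a second group of strong losses. They were not among the gene lists and were grouped after their lost pairs were seen, so the counts below are a description. The 27 baits of the *Hist1* genes on chromosome 13, which code for replication-dependent histones, had 267 lost and 47 gained pairs of 1732 (15.4% and 2.71%). They were listed with 1173 and 1214 pairs in the wild type and 746 and 798 in the knockout, below the 1178 to 1760 of the other 10 libraries. Of the lost pairs, 133 spanned more than 1 Mb and joined parts of the cluster to distant fragments. *Hist1h2ae* and *Hist1h3e* lost pairs with the fragment of *Hist1h2ak* and *Hist1h2bn*, 1.81 Mb and 1.80 Mb away, scored 32.43 and 33.53 and 32.16 and 33.54 in the wild type (limma adjusted p = 1.25e-05 and 0.000445). *Hist1h3e* lost others at 1.78 Mb, one scored 32.21 and 36.11 and one scored 18.54 and 83.76 (limma adjusted p = 0.000172 and 0.000606). With equal numbers of top-scoring pairs, 230 pairs of these baits were lost and 55 gained. One of the strongest gains lay in the same region of chromosome 13: *Btn2a2*, a butyrophilin gene, gained a pair 1.56 Mb away, scored 33.22 and 27.69 in the knockout and listed in 9 of the other 10 libraries (limma adjusted p = 0.00365).

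The baits with most lost pairs lay outside the developmental lists. *Cpsf3* and *Iah1* share a bait (chr12:21313557-21318145) with 83 lost pairs and 1 gained pair, listed with 126 and 127 fragments in the wild type, 3 and 17 in the knockout and 84 to 195 in the other 10 libraries. *Adam17*, a membrane protease gene beside it (chr12:21342176-21356094), had 44 lost pairs and none gained (76 and 115 against 9 and 19). Both passed the limma test over baits (log2 difference -3.74, SE 0.442, adjusted p = 0.000263, and -2.50, SE 0.349, adjusted p = 0.00118). The window from 20 to 30 Mb of chromosome 12 had the highest lost share, 13.7%, of the windows compared. That share came mostly from these promoters: 4 baits of *Cpsf3*/*Iah1* and *Adam17* held 148 of its 173 lost pairs, but 601 of its 1267 listed pairs. *Ubap2* followed with 37 lost pairs (55 and 108 against 9 and 16; other 10 libraries 5 to 121), and *Arhgef40* with 29 (68 and 67 against 14 and 19; other 10 libraries 41 to 93). *Zik1* was among the baits with most lost (35) and most gained (20) pairs, and *Gm25970* had 31 lost and 11 gained.

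**Figure D5:**
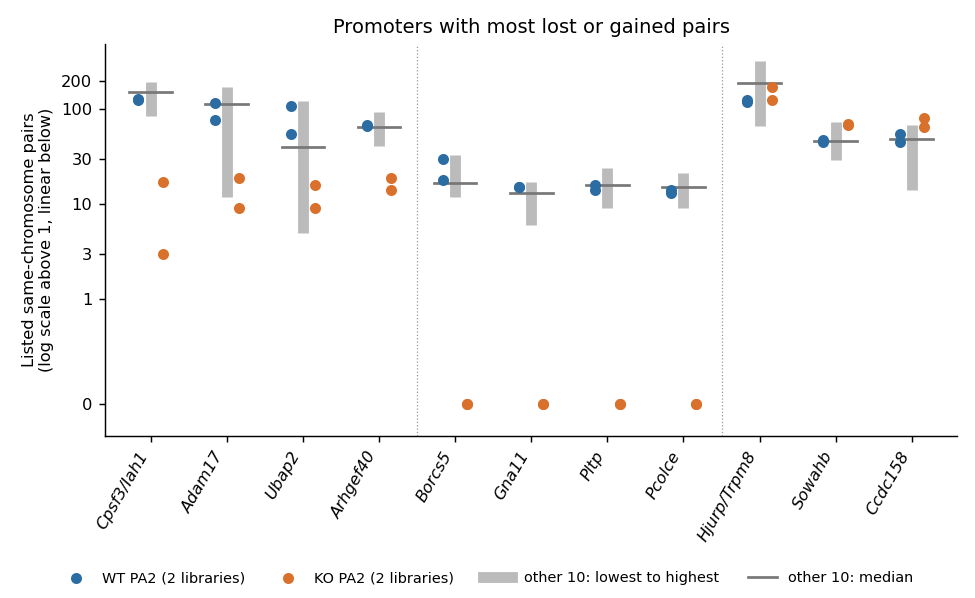
Number of same-chromosome pairs listed per library (vertical axis, log scale above 1 and linear below) for 11 baits: 4 of the 6 with most lost pairs, the 4 with the largest difference in the limma test, and 3 of the 6 with most gained pairs. Symbols are the 2 wild-type (blue) and 2 knockout (orange) PA2 libraries and the range and median of the other 10 libraries (grey). *Borcs5*, *Gna11*, *Pltp* and *Pcolce* are at 0 in both knockout libraries, and *Hjurp*/*Trpm8* overlaps between the groups.

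Gains were less concentrated. The *Hjurp*/*Trpm8* bait had 50 gained and 10 lost pairs, and its gained other ends all lay more than 20 Mb away, at a median of 84574 kb. It was listed with 119 and 126 fragments in the wild type, 124 and 173 in the knockout and 67 to 321 in the other 10 libraries, so the groups overlapped. On chromosome 5, *Sowahb* had 20 gained and 8 lost pairs (45 and 47 against 68 and 69; log2 difference 0.85, limma adjusted p = 0.145) and *Ccdc158* 16 gained and 4 lost (45 and 55 against 65 and 81). *Gm25521*, which lies beside *Sowahb*, had 19 gained and 9 lost pairs, and *Fxyd1*/*Fxyd7* on chromosome 7 had 18 and 6. Some of the strongest gained pairs were very long. *Hjurp*/*Trpm8* gained one of 84.7 Mb scored 29.68 and 36.23, and *Kbtbd4*/*Ndufs3* one of 63.6 Mb scored 26.08 and 26.08. *Gm16503* (1.48 Mb; 27.97 and 38.34) and *Olfr313* (19.2 kb; 24.27 and 24.11) were also among the strongest.

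Other ends were also compared, chosen after their values were seen. The fragment of *Oaz1* (chr10:80818477-80827553) was the other end of 0 and 0 pairs in the wild type, 12 and 12 in the knockout and 0 to 15 in the other 10 libraries. The fragment of *Fxr2*, an RNA-binding protein gene (chr11:69632089-69634145), was the other end of 0 and 0 pairs in the wild type, 14 and 13 in the knockout and 21 to 27 in the other 10. As a bait, the *Fxr2* fragment was listed with 24 and 22 pairs in the wild type and 25 and 26 in the knockout. The remaining 12 libraries all listed *Fxr2* as an other end, and the lists do not tell whether its pairs scored below 5 or were left out before scoring in wild-type PA2, which holds for *Oaz1* too. The *Fxr2* pair with *Acap1*, 263 kb away, was among the 10 largest higher calls (11.93 and 18.44 in the knockout, limma adjusted p = 0.000585), and none of those 10 belonged to a gene of the developmental lists. The reverse was seen at the fragment of *Eef2* and *Dapk3* (chr10:81171402-81198961), the other end of 20 and 18 pairs in the wild type, 1 and 1 in the knockout and 13 to 21 in the other 10 libraries.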

How the data were processed

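PCHi-C was carried out on sorted CNCCs in 14 libraries, of which 4 were compared here. Per the paper's methods and the labels, reads were demultiplexed with bcl2fastq 2.17, mapped to GRCm38/mm10 with HiCUP and scored with CHiCAGO, and each deposited table gives 1 score per bait and other end of a library. The score is relative to a background of the same library. Counts of reads were not used here, so the depth is unknown and no counting interval can be given; a shallower library lists fewer pairs.

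Same-chromosome pairs were matched to the HindIII digest of the reference, and a bait was given the genes with an annotated start site in it. Pairs (asinh of the score, unlisted at 0) and baits (log2 of listed pairs scaled to the library total, prior 0.5, mean of at least 3) were tested with limma 3.58.1 (lmFit, eBayes with trend) over 7 conditions, with Benjamini-Hochberg adjustment, in R 4.3.3 and Python 3.11.15. The step was tested on simulated data. The methods call the replicates independent biological samples of pooled cells. The named genes were the members of 13 gene lists (210 genes), the baits and pairs with the largest differences, and those with most or strongest lost and gained pairs. The members and lists were chosen with earlier results of these data known. Some genes that this rule names are not reported here. Alternatives are given in the closing section.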

Additional observations from a re-analysis of the deposited data

How the results depend on the processing

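The counts of lost and gained pairs followed the definition. With a score of at least 10 in both listing libraries they were 741 and 247, with a threshold of 10 in every library 3656 and 1795, and with no pair of the same bait within 10 kb on the other side 8175 and 9220. With equal numbers of top-scoring pairs they were 14968 and 21050, which turned their order. Leaving out 1 library gave 26514 to 82637 lost and 26121 to 55935 gained pairs, since a side of 1 library asks less of a pair: the lost pairs passed 1.5 times only without wild-type replicate 1 (82637) or 2 (78921), and the gained ones only without knockout replicate 1 (55935) or 2 (52513). By an alternative chosen after seeing the data, 12003 of the gained pairs were listed in at least 1 of the other 10 libraries. In the limma fit over pairs, 3320 were called in all, 12154 with a filter of 2 libraries and 42162 with the 4 PA2 libraries alone, a fit with few residual degrees of freedom; 3042 to 4188 were called without 1 library. Over baits, 63 were called, 131 without scaling to the library totals (median log2 difference -0.27), 0 with the 4 PA2 libraries alone (1785 unadjusted) and 33 to 93 without 1 library, the 33 without wild-type replicate 2. Without either wild-type library, 8 baits were higher, and with pairs scored at least 10, 24 were higher and 48 lower. The difference in median distance was -3.72 kb within 2 Mb and -31.7 to -12.6 kb without 1 library. For pairs with a score of at least 10 in the listing libraries, also chosen after seeing the data, the mean share listed in the other 10 libraries was 83.9% for lost, 35.9% for gained and 98.4% for kept pairs, against 53.1%, 19.5% and 84.7%. The replicate numbers did not pair the libraries, with a correlation of deviations of 0.002 over pairs and -0.002 over baits; with the replicate block, 3119 pairs and 80 baits were called. No fitted direction of a named pair or bait reversed, and 60 of the other values dropped below the test threshold under an alternative. A score of 5 as the lower end of the lists limits what can be called lost: a pair just under it is unlisted.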
